A study of Mus musculus with 17 samples.

Results

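The neuronal microtubule and cytoskeleton genes described here are the stathmins Stmn1, Stmn2, Stmn3 and Stmn4, the microtubule-associated protein genes Mapt, Map1b, Map2 and Dcx, the tubulin gene Tubb3 and the neuronal intermediate filament gene Ina. They were chosen by symbol, and every probe set that carries 1 of these 10 symbols was taken: 26 of the 45101 probe sets on the array, for 10 of the 18193 genes measured. RNA came from flow-sorted cortical cells of mouse embryos that carry the hGFAP-eGFP transgene, where the human GFAP promoter switches on green fluorescent protein (GFP) in radial glia, and each of 17 samples was put on 1 Affymetrix array. The sorts gave GFP-positive Prominin-selected cells at embryonic day 18 (E18, n = 4), and at embryonic day 14 (E14) GFP-high Prominin-selected (n = 4), GFP-low Prominin-selected cells (n = 3), together with GFP-high (n = 3) and GFP-low cells (n = 3) sorted on fluorescence. Prominin is a membrane protein of the apical surface of neural progenitors. The labels of the last 2 groups name no Prominin gate, and these cells are called ungated here. Whether the samples of a group came from separate litters is not stated in the labels.

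Radial glia are the stem and progenitor cells of the embryonic cortex, and the neurons they give rise to leave the ventricular surface and extend axons and dendrites. Growing neurites depend on microtubules that are built from neuronal tubulins, stabilised or bundled by microtubule-associated proteins and taken apart by stathmins, and neuronal intermediate filaments are added to them as axons mature. Because of this, transcripts of these 10 genes are widely used as signs of neuronal differentiation, although Stmn1 is also abundant in dividing progenitors. GFP protein can persist in daughter cells after the promoter has become inactive.

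Levels are log2 intensities after quantile normalisation, with 16 added before the logarithm. Each gene is given by its probe set of highest mean, and the median of all genes was 6.29. Genes were tested with limma, and a gene is said to have risen or fallen where the Benjamini-Hochberg adjusted p over all 18193 genes was under 0.05. Errors of levels are SDs and errors of log2 fold changes are standard errors. On this scale the fold changes of dim genes are understated.

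Marker genes were set beside the labels of the sorts. The 12 radial glia marker genes summed to intensities of 16600 to 21100 in GFP-high and 10900 to 12200 in GFP-low Prominin-selected cells, and to 34200 to 38200 in GFP-high and 6350 to 9150 in GFP-low ungated cells. All 12 were above background (a level of 5.55, set by genes not expected in cortex) in every group. In E18 cells the sum was 11400 to 15600. Postmitotic neuron markers were present in every sort, with 14 or 15 of 15 genes above background. Oligodendrocyte lineage markers summed to 1630 to 2700 at E18 and to no more than 149 in any E14 group. Markers of microglia summed to at most 271 and those of endothelial and mural cells to at most 305 on any array. Erythroid markers summed to 128 to 923 in Prominin-selected GFP-low cells and to at most 213 in any other group, with 1 of 4 genes above background in each. The E14 Prominin-selected arrays also stood apart in their control probe sets. The 18S ribosomal RNA control read 2290 to 5190 on them, against 302 to 583 on E18 arrays and 175 to 627 on ungated arrays. The comparisons by age and by Prominin gate cross this split, and the part of the 18S difference in them was not tested. The Gapdh control read higher at its 3′ than at its 5′ end by 0.54 to 2.29 on these 7 arrays. The same difference was −0.21 to 0.996 on E18 arrays and −0.25 to 0.18 on ungated arrays. By the labels, all 11 Prominin-selected samples and 1 ungated GFP-high sample were labelled with a MessageAmp kit, and the other 5 samples with an Affymetrix kit.

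Promoter sequence of RefSeq (GRCm38.p6) was at hand for 6 of the 10 genes: Stmn3, Map1b, Map2, Dcx, Tubb3 and Ina. The 250 bases before the start site are shown for 4 of them, 1 from each role. Capitals mark CANNTG, the E-box that proneural and other basic helix-loop-helix factors bind, and the TATA-like runs TATAA and TTATA, each searched on both strands.
Stmn3 (chr2:181314501-181314750, minus strand): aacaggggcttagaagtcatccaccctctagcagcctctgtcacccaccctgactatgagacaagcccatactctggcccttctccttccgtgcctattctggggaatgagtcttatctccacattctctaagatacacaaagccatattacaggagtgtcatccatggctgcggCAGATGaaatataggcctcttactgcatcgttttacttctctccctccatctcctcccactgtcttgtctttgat
Dcx (chrX:143933220-143933469, minus strand): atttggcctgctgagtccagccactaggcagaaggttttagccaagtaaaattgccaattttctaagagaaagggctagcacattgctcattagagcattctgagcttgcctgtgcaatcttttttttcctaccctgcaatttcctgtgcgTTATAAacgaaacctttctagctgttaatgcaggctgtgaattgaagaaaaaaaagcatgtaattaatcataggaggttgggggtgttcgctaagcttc
Tubb3 (chr8:123411303-123411552, plus strand): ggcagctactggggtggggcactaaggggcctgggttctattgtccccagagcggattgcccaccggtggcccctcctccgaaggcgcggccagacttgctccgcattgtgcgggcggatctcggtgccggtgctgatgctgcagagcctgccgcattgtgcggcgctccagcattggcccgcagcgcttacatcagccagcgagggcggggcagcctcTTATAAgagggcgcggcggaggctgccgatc
Ina (chr19:47014431-47014680, plus strand): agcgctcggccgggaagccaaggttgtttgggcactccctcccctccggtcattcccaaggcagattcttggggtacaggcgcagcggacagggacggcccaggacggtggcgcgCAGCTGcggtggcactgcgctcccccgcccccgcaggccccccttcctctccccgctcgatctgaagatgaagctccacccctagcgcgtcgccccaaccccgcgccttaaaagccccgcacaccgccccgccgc
The Stmn3 and Ina stretches each held 1 E-box, CAGATG ending 69 bases and CAGCTG ending 129 bases before the start site. An E-box was found in 66.2% of all 32851 promoter stretches of the same length, and CAGATG or its reverse complement CATCTG, itself an E-box, in 14.4%. Tubb3 and Dcx each held TTATAA, in which TATAA and TTATA overlap, 25 and 93 bases before the start site. Either spelling occurred in 22.8% of all promoters. GC content was 70.8% for Ina, 68.0% for Tubb3, 48.8% for Stmn3 and 41.6% for Dcx, against a median of 52.4%. The Dcx values are for the first of its listed start sites, whose stretch is shown. Before its second start site the same TTATAA ended 188 bases away, and GC content was 44.8%. These matches describe the letters in the window only. By Pearson r over the 17 arrays, levels of Stmn3, Dcx and Ina were alike (0.909 to 0.952 between pairs). Tubb3 was less like them (0.425 to 0.667). The part of the motifs in these profiles was not tested.

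Over the 5 groups the genes fell into a few orders of level. Mean levels of Stmn1, Stmn2, Mapt, Map2, Dcx, Tubb3 and Ina were highest in ungated GFP-low cells. Those of Stmn2, Stmn3, Stmn4, Mapt, Map1b, Dcx and Ina were lowest in ungated GFP-high cells. Stmn4 and Map1b had their highest mean at E18. Stmn2 ran from 12.37 in ungated GFP-low cells through 12.17 at E18, 11.54 in Prominin-selected GFP-low cells and 9.80 in Prominin-selected GFP-high cells to 7.54 in ungated GFP-high cells. Of these neighbours in order, the first pair overlapped between arrays and the others did not. Mapt had the same order of groups, from 12.24 to 7.55, with no overlap between any neighbours. Stmn1, which encodes the stathmin best known from proliferating cells, spanned the narrowest range by its brightest probe set, from 13.35 in Prominin-selected GFP-high cells to 13.88 in ungated GFP-low cells. Its second probe set (1448113_at) spanned more, from 9.99 in ungated GFP-high cells to 11.98 at E18. In bulk samples such as these, fewer cells of a type and less RNA per cell cannot be told apart.

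**Figure D1:**
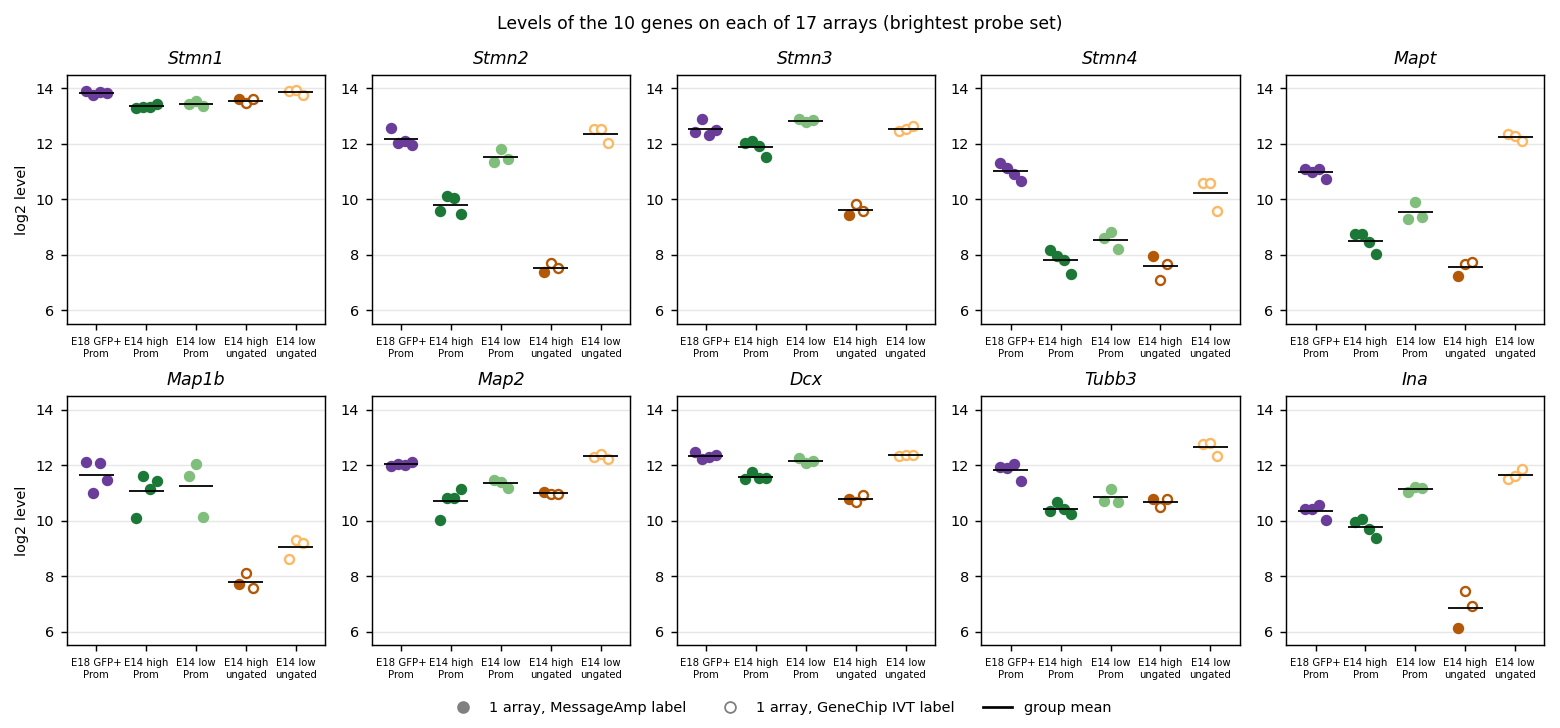
Log2 intensity of each of the 10 genes on the 17 arrays, by group; each point is 1 array, bars are group means and open points are arrays labelled with the Affymetrix kit. Stmn2, Mapt and Ina are lowest in ungated GFP-high cells (means of 7.54, 7.55 and 6.84), whereas Stmn1, by its brightest probe set, stays between 13.35 and 13.88; levels can be compared within a panel but not between genes.

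The first question was how GFP-high and GFP-low cells differ when both were sorted as Prominin-selected. In this comparison 4 of the 10 genes fell in GFP-high cells and 0 rose, against 1.20% of all genes that fell, 0.478% that rose and 1.68% that changed in either direction. The 4 were Stmn2, Stmn3, Mapt and Ina. The median log2 fold change of the 10 genes was −0.69, and that of all genes was −0.01. In 8 of the 10 genes every GFP-high array lay below every GFP-low array, which held for 7.51% of all genes.

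Among the stathmins, which bind tubulin dimers and promote the disassembly of microtubules, Stmn2 is the form of growing axons. Its level was 9.58, 10.12, 10.05 and 9.47 in GFP-high cells, against 11.34, 11.83 and 11.44 in GFP-low cells. The groups were more than a unit apart, and the fall was 3.32-fold (log2 fold change −1.73 ± 0.22, adjusted p = 0.0057). Stmn3, a membrane-bound neuronal stathmin, had levels of 12.04, 12.1, 11.91 and 11.53 in GFP-high cells, against 12.88, 12.8 and 12.85 in GFP-low cells. The 3 GFP-low arrays lay close together above all GFP-high arrays, and Stmn3 fell 1.93-fold (−0.95 ± 0.18, adjusted p = 0.029). Leaving out 1 array at a time ended the Stmn3 call in 5 of 7 cases, with adjusted p up to 0.0867. Stmn4, the stathmin of differentiating neurons, averaged 7.82 ± 0.37 in GFP-high cells and 8.55 ± 0.32 in GFP-low cells (−0.74 ± 0.23, adjusted p = 0.161). Stmn1 averaged 13.35 ± 0.07 and 13.45 ± 0.08 in the same order (−0.10 ± 0.13, adjusted p = 0.824), and its arrays overlapped.

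Of the microtubule-associated protein genes, Mapt encodes tau, which binds along axonal microtubules. Mapt stood at 8.74, 8.76, 8.47 and 8.04 in GFP-high cells, against 9.31, 9.93 and 9.38 in GFP-low cells, again without overlap. It fell 2.05-fold (−1.03 ± 0.21, adjusted p = 0.0344), a call that was lost in 6 of 7 fits without 1 array (adjusted p up to 0.119). Dcx encodes doublecortin, a microtubule stabiliser of migrating neurons. Its levels were 11.51, 11.75, 11.54 and 11.53 in GFP-high cells, against 12.26, 12.06 and 12.16 in GFP-low cells. The groups did not overlap, yet the difference missed the threshold (−0.58 ± 0.14, adjusted p = 0.0606). Map2, the dendritic microtubule-associated protein, averaged 10.7 ± 0.47 in GFP-high cells and 11.34 ± 0.16 in GFP-low cells (−0.65 ± 0.22, adjusted p = 0.202). Map1b, which is active early in axon growth, varied most within the groups: it was 10.09 to 11.62 in GFP-high cells and 10.13 to 12.04 in GFP-low cells (−0.20 ± 0.46, adjusted p = 0.912).

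Tubb3 encodes the class III beta-tubulin of neurons. It averaged 10.42 ± 0.19 in GFP-high cells and 10.84 ± 0.25 in GFP-low cells, a difference of −0.42 ± 0.19 that did not pass the test (adjusted p = 0.36). Ina encodes alpha-internexin, an intermediate filament protein of young axons. Its level was 9.96, 10.05, 9.69 and 9.37 in GFP-high cells, against 11.03, 11.19 and 11.16 in GFP-low cells. The gap between the groups was wider than the spread within either, and Ina fell 2.57-fold (−1.36 ± 0.19, adjusted p = 0.00753). Stmn2 and Ina kept their calls in every fit that left out a single array, with adjusted p of 0.00603 to 0.0316 for Stmn2 and 0.00856 to 0.0416 for Ina. A spike-in control, dap, read 984 on GFP-high replicate 1 and no more than 6.01 on the other 6 E14 Prominin-selected arrays, and the Gapdh difference was also lowest on that array and on GFP-low replicate 2. Without both of these arrays 0 of the 10 genes passed the test, and the share of all genes that passed was not counted. Stmn2 then differed by −1.51 and Ina by −1.39, each with an adjusted p of 0.067.

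Other cell types moved with this contrast. Of the 8 Cajal-Retzius markers, genes of the early reelin-secreting neurons of the cortical surface, 6 fell in GFP-high cells, with summed intensities of 664 to 812 in GFP-high and 3680 to 5030 in GFP-low cells. In GFP-high cells 5 of the 8 markers, Lhx1, Lhx5, Ndnf, Trp73 and Calb2, were not above background. Of the 15 measured postmitotic neuron markers 3 fell, and the sums were 13200 to 15600 in GFP-high and 19300 to 20000 in GFP-low cells. Their part in the falls of Stmn2, Stmn3, Mapt and Ina was not tested.

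Without the Prominin gate, 9 of the 10 genes fell in GFP-high cells and 0 rose, against 8.16% of all genes that fell, 7.61% that rose and 15.8% that changed. In all 10 genes the 3 GFP-high arrays lay below the 3 GFP-low arrays, as they did for 17.2% of all genes. The median log2 fold change of the 10 genes was −2.31, against −0.01 for all genes.

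Stmn2 had levels of 7.39, 7.70 and 7.53 in GFP-high cells, against 12.53, 12.55 and 12.03 in GFP-low cells. Mapt stood at 7.24, 7.66 and 7.76 in GFP-high cells, against 12.34, 12.27 and 12.11 in GFP-low cells. Ina was at 6.11, 7.47 and 6.92 in GFP-high cells, against 11.5, 11.6 and 11.86 in GFP-low cells. In these 3 genes the gap between the groups was several times the spread within either, and log2 fold changes were −4.83 ± 0.21, −4.69 ± 0.20 and −4.82 ± 0.35 (adjusted p = 0.000407, 0.000407 and 0.000643).

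Stmn3 was at 9.44, 9.82 and 9.59 in GFP-high cells, against 12.45, 12.54 and 12.64 in GFP-low cells, and fell 7.60-fold (−2.93 ± 0.18, adjusted p = 0.000607). Stmn4 was at 7.98, 7.10 and 7.68 in GFP-high cells, against 10.58, 10.58 and 9.57 in GFP-low cells, and fell 6.31-fold (−2.66 ± 0.36, adjusted p = 0.0032). Neither gene overlapped between the groups. Smaller falls were seen in Tubb3 (3.90-fold, adjusted p = 0.00128), Dcx (2.98-fold, adjusted p = 0.00125), Map2 (2.51-fold, adjusted p = 0.00208) and Map1b (2.36-fold, adjusted p = 0.0166). The Map1b call was lost in 4 of the fits without 1 array, with adjusted p up to 0.0649. Stmn1 averaged 13.56 ± 0.08 in GFP-high cells and 13.88 ± 0.08 in GFP-low cells (−0.31 ± 0.16, adjusted p = 0.27).

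In the same contrast 13 of 15 postmitotic neuron markers fell, with sums of 8910 to 9840 in GFP-high and 26400 to 32300 in GFP-low cells, and all 12 radial glia markers rose. Cajal-Retzius markers summed to 304 to 331 in GFP-high and 417 to 696 in GFP-low cells, with 5 and 6 of the 8 not above background. By gene, 2 of them rose and 1 fell in GFP-high cells, with a median log2 fold change of 0.17. What part they had in the falls of the cytoskeletal genes was not tested. The 3 GFP-low arrays and 2 of the 3 GFP-high arrays were labelled with the same kit, and on those arrays alone Stmn2, Mapt and Ina had log2 fold changes of −4.76, −4.53 and −4.46.

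The GFP contrast was smaller with the gate than without it. The difference between the gated and the ungated contrast passed the test, with a positive sign, in 7 of the 10 genes, against 3.87% of all genes with a positive, 3.83% with a negative and 7.70% with either sign. It was 3.65 ± 0.30 for Mapt (adjusted p = 1.85e-05), 3.46 ± 0.37 for Ina (adjusted p = 9.52e-05) and 3.10 ± 0.31 for Stmn2 (adjusted p = 5.61e-05) on the log2 scale. Stmn3 differed by 1.98, Stmn4 by 1.92, Tubb3 by 1.54 and Dcx by 0.999 (adjusted p = 0.000329, 0.00813, 0.00212 and 0.00394). The differences were 1.04 ± 0.62 for Map1b (adjusted p = 0.398), 0.68 ± 0.29 for Map2 (adjusted p = 0.202) and 0.22 ± 0.18 for Stmn1 (adjusted p = 0.592). Marker lists differed between the contrasts as well: 10 of 15 postmitotic neuron markers passed with a positive sign, and 10 of 12 radial glia, 13 of 15 mitotic spindle and 4 of 8 Cajal-Retzius genes with a negative one. Their part in the differences of the cytoskeletal genes was not tested. All 26 probe sets had a positive sign, and 14 of them passed the test, against 2.48% of all probe sets with 1 symbol that passed with that sign.

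**Figure D2:**
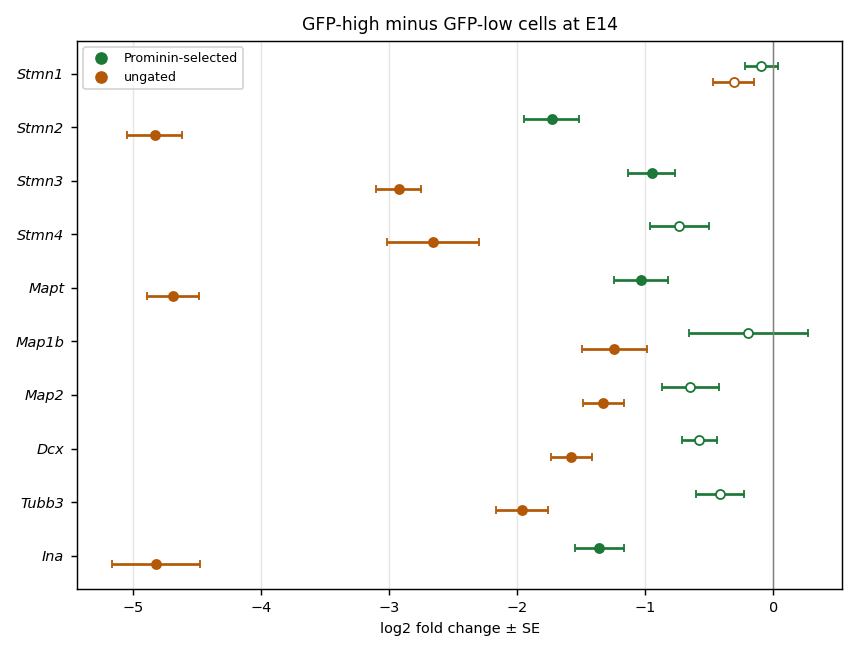
Log2 fold change of GFP-high over GFP-low cells for each gene with the Prominin gate and without it; bars are standard errors, and filled points passed the test at an adjusted p under 0.05. All points lie below 0, and Stmn2, Mapt and Ina are at −1.73, −1.03 and −1.36 with the gate and at −4.83, −4.69 and −4.82 without it.

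Age was compared within the Prominin gate. E18 cells were sorted as GFP-positive without a high or low gate, so they were set against both E14 groups, and the same 4 E18 arrays serve in both comparisons. Against E14 GFP-high cells, 9 of the 10 genes rose at E18 and 0 fell, where 10.2% of all genes rose, 16.5% fell and 26.7% changed. In 8 genes every E18 array lay above every E14 GFP-high array, which held for 11.2% of all genes. The median log2 fold change of the 10 genes was 1.05, against −0.07 for all genes.

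The stathmin Stmn4 rose most. It was at 11.3, 11.13, 10.93 and 10.68 at E18, against 8.17, 7.96, 7.84 and 7.30 in E14 GFP-high cells and 8.61, 8.84 and 8.21 in E14 GFP-low cells. All E18 arrays lay well above both E14 groups, by 9.14-fold against GFP-high cells (3.19 ± 0.22, adjusted p = 1.12e-06) and 5.49-fold against GFP-low cells (2.46 ± 0.23, adjusted p = 3.99e-05). Mapt was at 11.08, 10.99, 11.11 and 10.72 at E18. It was 5.57-fold higher than in E14 GFP-high cells (2.48 ± 0.20, adjusted p = 3.53e-06) and 2.72-fold higher than in E14 GFP-low cells (1.44 ± 0.21, adjusted p = 0.000776), with no overlap with either. Tubb3 was at 11.92, 11.89, 12.02 and 11.42 at E18, against 10.34, 10.68, 10.41 and 10.25 in E14 GFP-high cells and 10.7, 11.13 and 10.68 in E14 GFP-low cells. It too stood above both, by 2.63-fold (1.39 ± 0.18, adjusted p = 9.64e-05) and 1.97-fold (0.98 ± 0.19, adjusted p = 0.004).

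Stmn2 was at 12.58, 12.04, 12.1 and 11.97 at E18. That was 5.16-fold above E14 GFP-high cells (2.37 ± 0.20, adjusted p = 5.49e-06), whereas the difference from E14 GFP-low cells was 0.63 ± 0.22 (adjusted p = 0.0625). Map2 was higher at E18 than in GFP-high cells by 2.54-fold (adjusted p = 0.000396) and than in GFP-low cells by 1.62-fold (adjusted p = 0.0475). Dcx rose 1.69-fold against GFP-high cells (adjusted p = 0.000835), and stood 0.18 ± 0.14 from GFP-low cells (adjusted p = 0.438). Stmn1 was 1.41-fold and 1.32-fold higher at E18 than in GFP-high and GFP-low cells (adjusted p = 0.00743 and 0.0478). Map1b differed by 0.59 ± 0.43 and 0.40 ± 0.46 from the same groups, with adjusted p of 0.367 and 0.622.

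Ina and Stmn3 lay between the E14 groups or near the GFP-low one. Ina was at 10.43, 10.42, 10.56 and 10.01 at E18. Its mean was above that of E14 GFP-high cells (0.59 ± 0.18, adjusted p = 0.0263), though arrays of the 2 groups overlapped. It was 1.71-fold below E14 GFP-low cells (−0.77 ± 0.19, adjusted p = 0.0149). Stmn3 averaged 12.54 ± 0.26 at E18. It was 1.56-fold above GFP-high cells (adjusted p = 0.0133), and differed from GFP-low cells by −0.31 ± 0.18 (adjusted p = 0.285). Against E14 GFP-low cells, in all, 5 of the 10 genes rose and Ina fell, where 6.02% of all genes rose, 11.4% fell and 17.4% changed in either direction. Leaving out 1 array at a time left 3 or 4 genes called in this comparison: Stmn1 and Map2 lost their calls in all 7 such fits, with adjusted p up to 0.13 and 0.146. In the comparison with GFP-high cells, the Ina rise was lost in 5 of the 8 fits without 1 array (adjusted p up to 0.0779).

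Cell type markers differed by age as well. Of 9 interneuron markers, 8 were higher at E18 than in either E14 group, with sums of 3320 to 3730 at E18, 416 to 733 in GFP-high and 612 to 967 in GFP-low cells. Dlx1, a transcription factor gene of interneurons, was 16.5-fold higher than in GFP-high cells (adjusted p = 4.9e-07). The postmitotic neuron list, mostly of genes of cortical projection neurons, went both ways against GFP-high cells, with 6 of 15 higher and 3 lower, and sums of 18500 to 20200 at E18 and 13200 to 15600 in GFP-high cells. Of 12 radial glia markers, 8 were lower and 2 higher at E18 than in GFP-high cells. The Gapdh 3′ to 5′ difference was also smaller on most E18 arrays. With it as a covariate 7 of the 10 genes still passed against GFP-high cells. Against GFP-low cells 2 passed, Stmn4 and Mapt. The share of all genes that passed with the covariate was not counted. What part cell types had in the rises was not tested.

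Prominin-selected cells were then set against ungated cells of the same GFP gate at E14. Among GFP-high cells, 6 of the 10 genes were higher with the gate and 0 were lower, against 11.8% of all genes that were higher, 8.98% that were lower and 20.7% that changed. Stmn3 was 4.85-fold higher in gated cells (2.28 ± 0.17, adjusted p = 5.45e-07), Stmn2 4.81-fold (2.27 ± 0.21, adjusted p = 3.2e-06) and Ina 7.63-fold (2.93 ± 0.26, adjusted p = 1.86e-06). Map1b was at 10.09, 11.62, 11.13 and 11.41 in gated cells, against 7.70, 8.10 and 7.58 in ungated cells, and was 9.65-fold higher (3.27 ± 0.42, adjusted p = 5.5e-05). Mapt (0.95 ± 0.21, adjusted p = 0.0034) and Dcx (0.80 ± 0.13, adjusted p = 0.000439) were also higher. Stmn1, Stmn4, Map2 and Tubb3 differed by −0.28 to 0.23 and did not pass the test. Cell type markers differed with the gate too. Of 15 postmitotic neuron markers 7 were higher, with sums of 13200 to 15600 in gated and 8910 to 9840 in ungated cells. Of 9 interneuron markers 7 were higher (sums of 416 to 733 in gated and 93.5 to 186 in ungated cells), and 8 of the 9 were not above background in ungated cells. Radial glia markers were lower in 7 of 12 genes (16600 to 21100 in gated and 34200 to 38200 in ungated cells), as were 14 of 15 mitotic spindle genes. Of these 12 markers, which include Prom1, the gene of Prominin, 0 were higher with the gate. The part of the marker genes in the higher levels was not tested. The 6 genes also passed against the 1 ungated GFP-high array labelled with the MessageAmp kit, with log2 fold changes of 2.45 for Stmn3, 2.41 for Stmn2 and 3.65 for Ina, in a comparison added after the data were seen in which that lone array is assumed to vary like the others.

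Among GFP-low cells the direction was mostly the opposite. There 6 of the 10 genes were lower with the gate and 1, Map1b, was higher, against 8.46% of all genes that were lower, 10.8% that were higher and 19.2% that changed. Mapt was at 9.31, 9.93 and 9.38 in gated cells, against 12.34, 12.27 and 12.11 in ungated cells, and fell 6.50-fold (−2.70 ± 0.22, adjusted p = 3.95e-06). Tubb3 was at 10.7, 11.13 and 10.68 in gated cells, against 12.77, 12.81 and 12.33 in ungated cells, and fell 3.49-fold (−1.80 ± 0.20, adjusted p = 4.16e-05). Neither gene overlapped between the gates. Stmn4 fell 3.23-fold (adjusted p = 0.00116), Map2 1.95-fold (adjusted p = 0.00444), Stmn2 1.78-fold (adjusted p = 0.0167) and Stmn1 1.35-fold (adjusted p = 0.0312). Map1b was 4.68-fold higher in gated cells (2.23 ± 0.45, adjusted p = 0.00263). Stmn3, Dcx and Ina differed by 0.30, −0.20 and −0.53 and did not pass the test.

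Gated and ungated GFP-low cells were labelled with different kits, array by array. The kit could be entered as a term only through the 1 MessageAmp array among the ungated GFP-high arrays. Then 3 genes passed: Mapt (−2.23, adjusted p = 0.0152), Tubb3 (−1.94, adjusted p = 0.0207) and Stmn4 (−2.28, adjusted p = 0.0421). With the Gapdh 3′ to 5′ difference as a covariate 4 genes passed, among them Mapt (−2.24, adjusted p = 0.00288) and Tubb3 (−1.60, adjusted p = 0.0133). The share of all genes that passed was not counted in either fit. The gate also went with markers of other cells among GFP-low cells. Of 8 Cajal-Retzius markers 7 were higher with the gate (sums of 3680 to 5030 in gated and 417 to 696 in ungated cells), and 6 of 15 postmitotic neuron markers were lower and 2 higher (19300 to 20000 in gated and 26400 to 32300 in ungated cells). Their part in the falls was not tested.

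**Figure D3:**
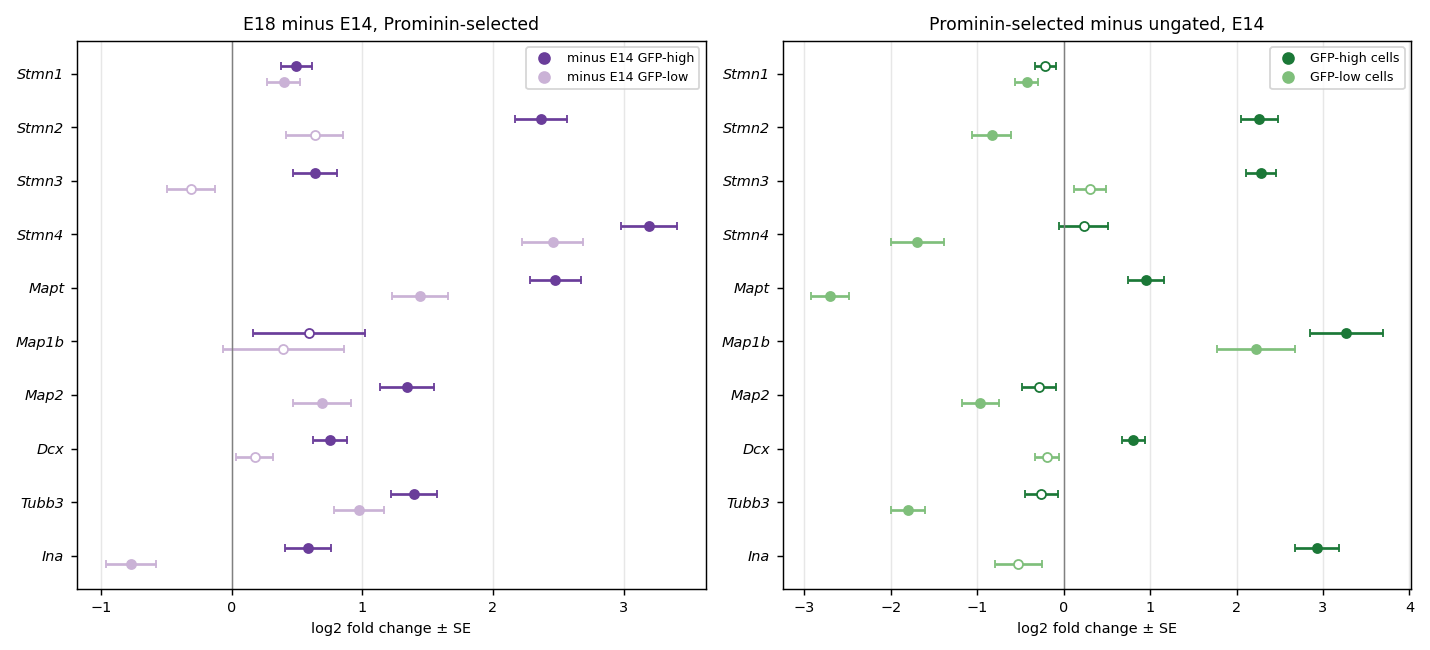
Log2 fold change of each gene at E18 over E14 (left) and in Prominin-selected over ungated cells (right), with standard errors; filled points passed the test. Stmn4 and Mapt lie furthest above 0 against E14 GFP-high cells (3.19 and 2.48), and Map1b passed the test above 0 in both gate comparisons (3.27 in GFP-high and 2.23 in GFP-low cells), while Mapt and Tubb3 lie at −2.70 and −1.80 in GFP-low cells.

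Probe sets of 1 gene did not always tell the same story, and 8 of the 10 genes had more than 1. In both GFP contrasts all 26 probe sets had a negative sign. With the gate 7 passed, where 0.592% of all probe sets with 1 symbol passed in either direction, and without it 18 passed, against 11.7%. No gene had probe sets that passed in opposite directions in either contrast. Both probe sets of Stmn2 and all 3 of Ina fell in both contrasts. All 4 of Mapt fell without the gate, 1 of them (1417885_at) to a level not above background. With the gate 1 of the 4 passed (1455028_at, adjusted p = 0.0316 among probe sets), and the brightest did not (adjusted p = 0.0557). For Stmn3 the brightest passed with the gate (adjusted p = 0.0463), and the other (1460181_at) did not (adjusted p = 0.0856).

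Map1b, Map2 and Dcx each had probe sets that passed in opposite directions in at least 1 contrast by age or gate. For Map1b the brightest probe set (1450397_at) was 3.27 higher on the log2 scale in gated than in ungated GFP-high cells (adjusted p = 3.55e-05 among probe sets), whereas the next (1421851_at) differed by −0.08 ± 0.39 (adjusted p = 0.92). Among GFP-low cells the brightest had a log2 fold change of 2.23 and the third (1421850_at) of −1.76 with the gate (adjusted p = 0.00212 and 0.0456). The rise of Map1b with the gate therefore rests on 1 probe set of 3. At E18 it was the other way round: 1421851_at was 2.02 higher than in E14 GFP-high cells (adjusted p = 0.00186), and the brightest, as given above, did not pass.

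Map2 and Dcx showed the same kind of split. Between gated and ungated GFP-high cells, Map2 probe set 1440699_at was 1.11 higher (adjusted p = 0.00487), and 1421328_at was lower, with a log2 fold change of −1.60 (adjusted p = 0.000753). A further probe set, 1421327_at, was also lower, but it was not above background in gated cells. For Dcx the brightest probe set (1418139_at) was 0.80 higher with the gate, while 1418141_at and 1448974_at were lower, at −1.06 and −0.999 (adjusted p = 0.0067 and 0.0167). At E18, Dcx probe set 1418141_at had a log2 fold change of 1.03 against E14 GFP-high cells (adjusted p = 0.00899), and of 0.84 against E14 GFP-low cells (adjusted p = 0.0495). The dimmest, 1448974_at, was called lower in both of these comparisons but was not above background at E18, so its size there is not given. Against E14 GFP-low cells, Map2 probe set 1440699_at was 1.87 higher at E18 and 1421328_at fell by 0.72 on the log2 scale (adjusted p = 0.000721 and 0.0286).

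Among all 9010 genes with more than 1 probe set, opposite calls were made in 4.86% between gated and ungated GFP-high cells, 4.12% among GFP-low cells, 2.91% between E18 and E14 GFP-high cells and 1.80% between E18 and E14 GFP-low cells. They were made in 0.155% in the ungated GFP contrast. The first 4 of these contrasts cross the difference in Gapdh 3′ to 5′ signal between arrays, and also the difference in the 18S control. More probe sets passed in them, 16.2% to 23.3% in either direction, against 11.7% in the ungated GFP contrast. The position of each probe set along its transcript was not used here. What part RNA quality or these other differences had in the splits was not tested. By Affymetrix naming, the brightest probe sets of Stmn1 (1415849_s_at) and Stmn3 (1435113_x_at) may also detect related transcripts. The second Stmn1 probe set (1448113_at) was 1.78 higher at E18 than in E14 GFP-high cells (adjusted p = 4.19e-05), against 0.50 for the first, and did not pass in the GFP contrasts.

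**Figure D4:**
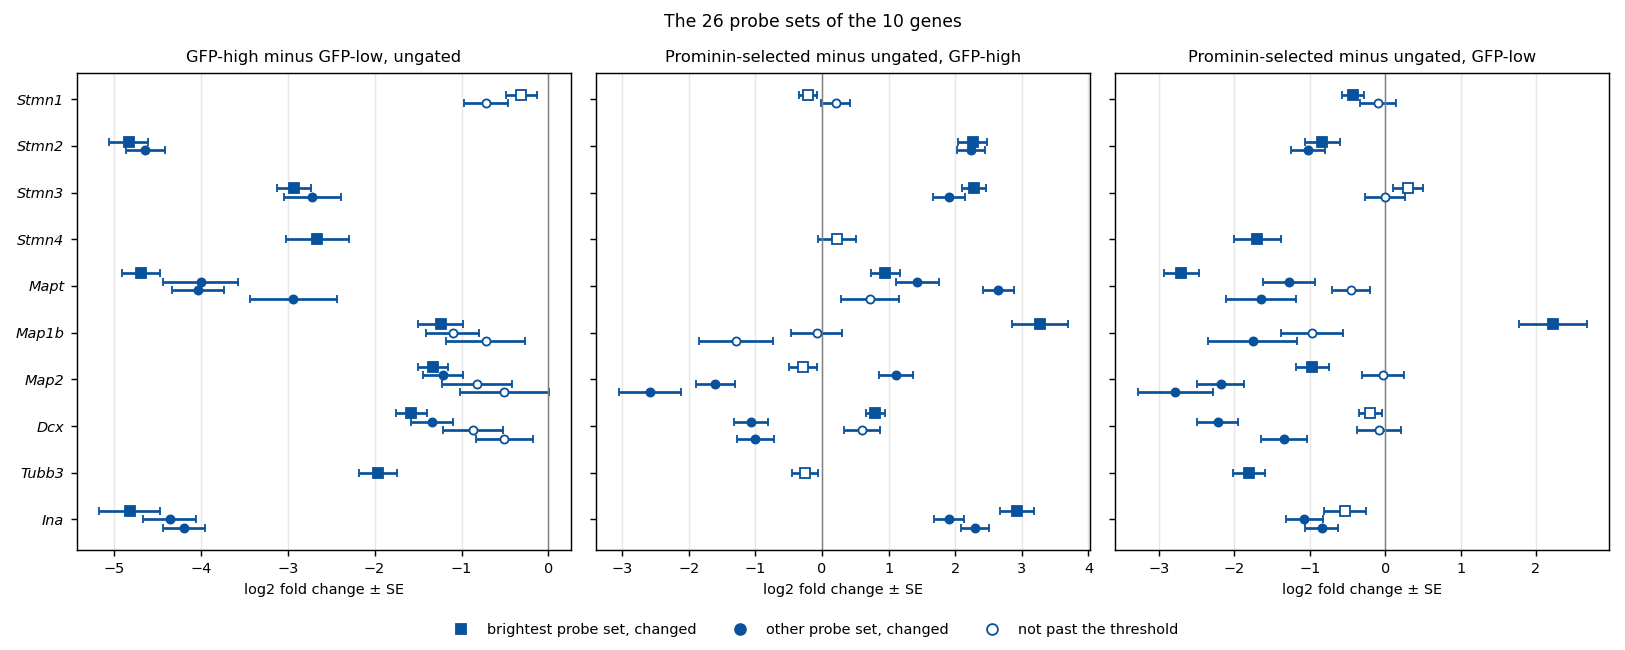
Log2 fold change of all 26 probe sets, grouped by gene. The panels show GFP-high over GFP-low ungated cells, and gated over ungated cells among GFP-high and among GFP-low cells. Filled points passed the test over probe sets. Those of Map1b, Map2 and Dcx lie on both sides of 0 between gated and ungated GFP-high cells, for Dcx from 0.80 to −1.06, whereas those of Mapt lie on 1 side of 0 in each comparison but differ in size, from 0.72 to 2.65 in that one.

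Other genes of the same cell structures were taken list by list. Of 13 measured tubulin genes, 1 fell in GFP-high cells with the gate and 3 without it, and 0 rose in either. Tubb2a, a beta-tubulin of the brain, fell 1.90-fold with the gate (adjusted p = 0.0327) and 4.72-fold without it (adjusted p = 0.000679). Of 26 other genes for proteins that bind microtubules or tubulin, 2 fell with the gate, Map9 (1.77-fold, adjusted p = 0.0244) and Map6 (1.71-fold, adjusted p = 0.0435), and 13 fell without it. Among these 13, Crmp1, which encodes a collapsin response mediator protein, fell 5.37-fold (adjusted p = 0.000643).

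Of all 11 intermediate filament genes, 2 rose and 2 fell in GFP-high cells without the gate, and 1 fell with it. Nefm, the medium neurofilament subunit, fell 1.85-fold in GFP-high cells with the gate (adjusted p = 0.0471) and 7.15-fold without it (adjusted p = 0.000736). Vim, the vimentin gene of radial glia, was 4.90-fold higher in GFP-high cells without the gate (adjusted p = 0.00105) and 3.40-fold lower at E18 than in E14 GFP-high cells (adjusted p = 5.78e-05).

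Among 20 growth cone and actin genes, 3 fell with the gate and 7 without it, and 0 rose. Gap43, the growth-associated protein of axon tips, fell 2.07-fold with the gate (adjusted p = 0.0147) and 5.55-fold without it (adjusted p = 0.000643). Genes of the mitotic spindle, the microtubule structure of dividing cells, went the other way: 2 of 15 rose in GFP-high cells with the gate and 13 of 15 without it, with medians of 0.55 and 2.52 against −0.69 and −2.31 for the 10 neuronal genes. At E18, 13 of the 15 spindle genes were lower than in E14 GFP-high cells, with a median of −1.43. Of 23 genes that regulate microtubules or neuronal migration, 1 fell with the gate, and 8 fell and 2 rose without it. Cdk5r1, which encodes an activator of the kinase Cdk5, fell 5.12-fold and Nde1, a dynein regulator of dividing progenitors, rose 4.99-fold in ungated GFP-high cells (adjusted p = 0.000677 and 0.000667).

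**Figure D5:**
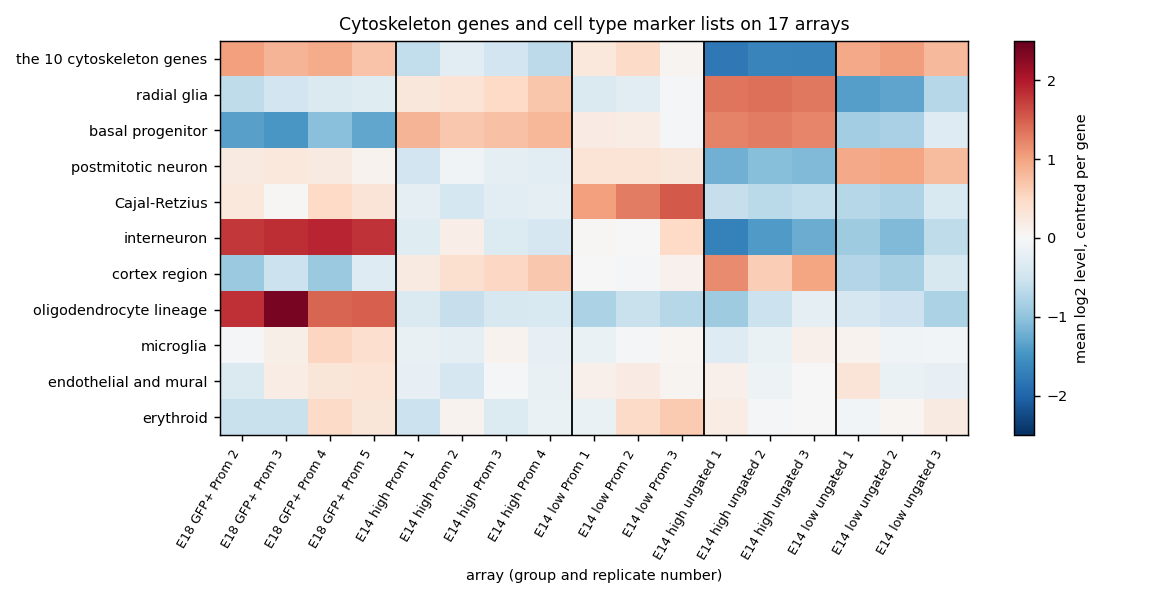
Mean log2 level of the 10 genes and of marker gene lists on each array, each gene centred on its mean over the 17 arrays. Rows of the heat map are lists, and columns are arrays by group. The 10 genes and the postmitotic neuron list are lowest in ungated GFP-high cells, where the radial glia list is highest, and the interneuron list is highest at E18, where its summed intensity was 3320 to 3730.

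Genes with the most similar profile were sought among all other genes above the median level, by Pearson r over the 17 arrays. These points fall into 5 groups, so r measures likeness only. Shtn1 was most like the mean of the 10 genes (r = 0.997), with means of 10.82 at E18, 8.27 and 9.56 in Prominin-selected GFP-high and GFP-low cells, and 6.78 and 10.93 in ungated GFP-high and GFP-low cells. Cnr1, Celf5, Snap91 and Ss18l1 followed with r of 0.990 to 0.984. For single members, Rab3c was most like Stmn2 (r = 0.989), Shisa5 most like Stmn3 (0.988), Nuak1 most like Ina (0.982), Jakmip1 most like Dcx (0.982), Nsg1 most like Stmn4 (0.981) and Celf5 most like Mapt (0.980). The closest matches were weaker for Map2 (Gpm6a, 0.969), Stmn1 (Zfp512, 0.964), Tubb3 (Nsg2, 0.960) and Map1b (Zfp462, 0.958).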

How the data were processed

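The authors deposited 1 linear intensity for each of 45101 probe sets per array. These values had the same trimmed mean, 150, on every array, and the software that made them is not given in the sources used here. RNA was isolated with a column kit with DNase treatment, per the labels' protocols. The number of arrays limits the precision.

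After 64 control probe sets were left out, a pseudocount of 16 was added, log2 was taken, and the 17 arrays were normalised by quantiles in R 4.3.3 with limma 3.58.1. Of the remaining probe sets 34945 carried 1 symbol, and each of 18193 genes was represented by its brightest. Of those 34945, 34741 matched a RefSeq gene by Entrez identifier, all 10 genes described here among them. Groups were compared with limma (lmFit and eBayes, two-sided, Benjamini-Hochberg over all genes, threshold 0.05), and again over probe sets. Contrasts among Prominin-selected groups used their 11 arrays, the ungated GFP contrast its 6, and contrasts that cross the gate all 17. Since separate litters are not stated, the spread behind the p-values may be technical in part or in whole. The level taken as background is the 90th percentile of group means of 19 genes not expected in cortex. Same-numbered samples of different groups had correlations of −0.144 to 0.0402 after group means were removed, so numbers were not taken as pairs. The procedure was tested on simulated data, and alternatives covered the pseudocount, normalisation, probe set choice, dim probe sets, labelling kit, 3′ signal, replicate block and single arrays. Figures were drawn with Python 3.11.15 and matplotlib 3.10.9.

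The 10 genes and all gene lists were chosen with earlier results of these data known. All 10 were named whatever their result. From each other list at most 3 genes per comparison could be named, those of lowest p that passed the test, and the text gives a part of them.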

Additional observations from a re-analysis of the deposited data

Results flagged for a closer look

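The difference between the GFP contrast with the Prominin gate and without it was itself past the threshold in 7 of the 10 genes in limma's fit. The gated minus the ungated log2 fold change was 3.65 for Mapt, 3.46 for Ina, 3.10 for Stmn2, 1.98 for Stmn3, 1.92 for Stmn4, 1.54 for Tubb3 and 0.999 for Dcx. The 7 were positive because the falls in GFP-high cells were smaller with the gate. In all of them but Dcx the call was kept in each of the 22 alternatives run, and Dcx lost it in 2.

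In Dcx, GFP-high Prominin-selected replicate 2 stood above the other arrays of its group, with levels of 11.51, 11.75, 11.54 and 11.53 over the 4 arrays. Its gap to the next array was 0.855 of the range of the group. Of 20 groups of 4 arrays looked at in this way 1 stood out, and chance marks about 1 in 20.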

How the results depend on the processing

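Over the 10 genes and 7 comparisons, 1200 alternative values were computed: 1073 kept their direction and side of the threshold, 94 lost a call, 14 gained one and 19 changed sign. Unless stated, the cause of a change was not tested. The share of all genes called was not counted in the alternatives, so whether lost calls are particular to these genes cannot be told. With the gate, the 4 genes called between GFP-high and GFP-low cells became 2 at a pseudocount of 1 (3 probe sets instead of 7) and 2 to 4 when single arrays were left out (probe sets 0 to 6). They were 0, with 0 probe sets, when replicate 1 of GFP-high and replicate 2 of GFP-low cells were both left out, an alternative chosen after the data were seen that also removes arrays. With the replicate number as a replicate block 1 gene and 0 probe sets were called. At E18 against E14 GFP-low cells, 6 genes and 12 probe sets became 3 and 7 with the replicate block, 2 and 4 with the Gapdh 3′ to 5′ difference as a covariate, and 3 to 4 and 8 to 11 without single arrays. Between gated and ungated GFP-low cells, 7 genes and 17 probe sets became 4 and 6 with that covariate and 3 and 4 with the labelling kit as a term, and 11 to 16 probe sets without single arrays. The block changed the number of genes called by no more than 1 in the other 5 comparisons.

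Signs changed mainly in Map1b and in genes far from the threshold, but also in Dcx, which was called higher in gated than in ungated GFP-high cells. Map1b between GFP-high and GFP-low gated cells was −0.759 to 0.196 without single arrays and 0.521 without the pair named above. At E18 against GFP-low cells it was −0.165 to 0.791 without single arrays and −0.122 with the Gapdh covariate. With the mean of all probe sets of a gene, Dcx was −0.0885 at E18 against GFP-low cells and −0.165 in gated minus ungated GFP-high cells, and Map1b was −0.167 between gated and ungated GFP-low cells. With the second-brightest probe set, chosen as an alternative after the data were seen, the gate difference in GFP-high cells was 0.204 for Stmn1, −0.0819 for Map1b, 1.11 for Map2 and −1.06 for Dcx. Of these, Map2 and Dcx passed the limma test with the changed sign (adjusted p = 0.00593 and 0.00818). The same choice gave −0.971 for Map1b and −0.00156 for Stmn3 between gated and ungated GFP-low cells, and 0.183 for Stmn3 at E18 against GFP-low cells. These follow from the probe sets of a gene differing among themselves. Stmn4 between gated and ungated GFP-high cells was −0.161 with the kit as a term or on MessageAmp arrays only, and −0.0128 to 0.425 without single arrays. Ina between gated and ungated GFP-low cells was 0.557 with the kit as a term. Levels near the background of 5.55, as in the dimmest probe sets of Mapt, Map2 and Dcx, limit what can be read from their fold changes.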
